A study of Mus musculus with 2 samples.

Results

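Glycerophospholipid synthesis is described here by 33 genes, which encode the enzymes that build the phosphatidic acid backbone and turn it into phosphatidylcholine, phosphatidylethanolamine, phosphatidylserine, phosphatidylinositol, cardiolipin and ether lipids. The genes were taken from the known pathway, and earlier results of these data were known when they were chosen. A gene was read through the probe sets of the array annotated to its symbol alone, with the brightest probe set by mean log2 signal giving its value. Of the 33 genes, 32 were named by a probe set and 31 were measured on both arrays, that is, above a floor of 92.9 in signal, out of 11496 measured and 18193 named genes in the whole data set. Pcyt1b lay below the floor on both arrays (28.5 and 28.1) and has no ratio here, and Etnk2 was not analysed here.

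New glycerophospholipid begins with the acylation of glycerol 3-phosphate to phosphatidic acid, which lipins dephosphorylate to diacylglycerol or CDP-diacylglycerol synthases activate with CTP. Diacylglycerol receives phosphocholine or phosphoethanolamine from CDP-choline or CDP-ethanolamine (the Kennedy pathways), whereas CDP-diacylglycerol leads to phosphatidylinositol and cardiolipin. The acyl chains of finished phospholipids are then exchanged by lysophospholipid acyltransferases, of which Lpcat3, prominent in the small intestine, places polyunsaturated chains into phosphatidylcholine and phosphatidylethanolamine.

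Crypts, the pits of the small-intestinal lining that hold the stem and Paneth cells, were compared between mice with both Lpcat3 alleles floxed (Lpcat3 F/F, the control) and mice of that genotype that also carried Villin-CreERT2, a Cre recombinase made in the intestinal epithelium and activated by tamoxifen (the knockout). Mice of both groups were 8 to 10 weeks old and received 1 mg of tamoxifen daily over 5 days, and their crypts were collected 2 weeks afterwards. RNA of 5 mice was pooled for each genotype and read on 1 array, which leaves no replicates. No test of genotype was therefore made, and precision is limited by there being 2 arrays. Effects of the deletion, of Cre, of the pooled mice and of the array cannot be told apart.

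The error that can be given is technical. The log2 ratios of the 2 brightest probe sets of a gene differed with an SD of 0.39 over 4582 genes. Divided by the square root of 2 this gives an SD of 0.28 for a single probe set (1.21-fold), called the probe error below, which holds nothing of the variation among mice or pools. The signal of Lpcat3 was 4691 in control and 928 in knockout (log2 ratio -2.34), so the array labelled knockout had the lower signal of the targeted gene. Epithelial markers were above the floor in 9 of 9 cases and none of the 9 differed by 1.5-fold, with a summed signal of 143402 in control and 159794 in knockout. Other cell types differed between the pools. Markers of T and natural killer cells were lower in 9 of 9 measured genes (summed signal 42500 and 8926, with Cd2 below the floor on both arrays), those of crypt base stem cells in 8 of 8 (40129 and 26033), and those of Paneth cells in 5 of 5 (110166 and 68910). B and plasma cell markers were higher in 6 of 6 (1440 and 5043, with none of those 6 below the floor), but Cd79a lay close to the floor and differed little (95.5 and 104). Macrophage markers were higher in 5 of 5 (413 and 1299), but Cd68, C1qa and C1qb lay below the floor in control and Adgre1 differed little (115 and 121). Tuft cell markers were lower in 4 of 4 measured genes and enteroendocrine markers in 6 of 7, while goblet and enterocyte markers went both ways. The part of these cells in the ratios below was not tested, and in such bulk RNA fewer cells of a type and less RNA per cell cannot be told apart.

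The glycerophospholipid synthesis genes were mostly somewhat higher in the knockout pool. Of the 31 measured, 25 had a higher and 6 a lower signal there, whereas 44.9% of all measured genes were higher. By the second brightest probe set, which 21 of the genes have, 12 were higher and 9 lower (46.9% of all such genes higher). The median log2 ratio was 0.17, against -0.042 over all measured genes, and single genes ran from -0.52 (Agpat3) to 0.94 (Chka). At least 1.5-fold higher were 4 genes (4.76% of all measured genes), namely Chka, Agpat2, Far1 and Agps, and 0 were at least 1.5-fold lower (8.74% of all). No member reached 2-fold, which 1.41% of all measured genes passed upward and 2.32% downward. Counted by the smaller step of 1 probe error, 13 genes were higher by more (16.7% of all) and 2, Agpat3 and Taz, lower by more (25.3% of all).

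These counts shift little with the brightness of the genes, of which 28 of the 31 lay at or above the 75th percentile of all signals (451). Among measured genes that bright, 48.4% were higher, and 3.85% passed 1.5-fold upward and 5.03% downward. Of the 28 bright members, 22 were higher, 3 passed 1.5-fold upward and 0 downward. A count by probe set includes the brightest ones counted above and several of the same gene, so it is no separate check. The 31 genes had 75 probe sets above the floor in either pool. Of these, 52 were higher and 23 lower, against 45.5% higher over all probe sets with 1 symbol. In 21 genes read by at least 2 such probe sets, 8 had all of them higher (38.1%; 22.6% over all such genes), 1 had all of them lower (4.76%; 29.6%), and in 12 they went both ways (57.1%; 47.7%).

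**Figure D1:**
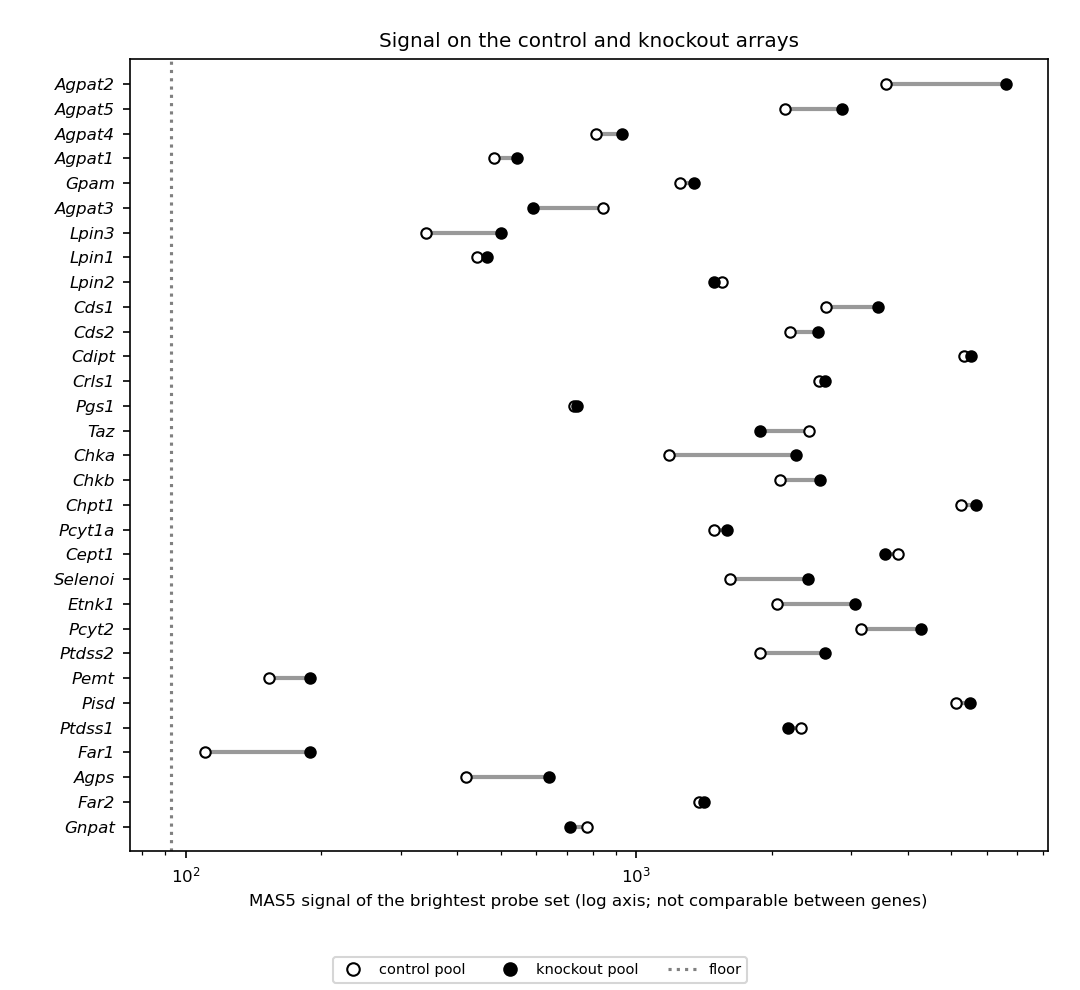
Signal of the brightest probe set on a log axis for the 31 measured genes, open circles for the control pool and filled circles for the knockout pool, grouped by branch and ordered by ratio within it, with the floor dotted. The filled circle lies to the right in 25 genes, farthest for Chka (1179 to 2261) and Agpat2 (3588 to 6607), and to the left in 6, farthest for Agpat3 (843 to 588).

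The promoters of the genes with the clearest ratios are shown with 2 of their relatives, because genes of lipid synthesis are known to be regulated through short promoter elements that can be looked for in them. RefSeq windows of GRCm38.p6 were found for 29 of the 33 genes, and the 250 bases before a start site were searched on both strands for TCACNCCAC (a sterol regulatory element), CACGTG (an E-box), CCAAT (the CCAAT box) and GGGCGG (the GC box). Sequences run 5′ to 3′ on the gene's strand with the matches in capitals, so that CCGCCC and ATTGG are matches on the opposite strand, and adjoining or overlapping matches appear as 1 run. Chka, the choline kinase with the highest ratio, is set beside its relative Chkb, and the gene record of Chka begins upstream of the start site used. Agpat2 and Etnk1 follow, and Pcyt1a is shown because it alone of the 29 held the sterol regulatory element.
Chka, chr19:3851523-3851772, plus strand: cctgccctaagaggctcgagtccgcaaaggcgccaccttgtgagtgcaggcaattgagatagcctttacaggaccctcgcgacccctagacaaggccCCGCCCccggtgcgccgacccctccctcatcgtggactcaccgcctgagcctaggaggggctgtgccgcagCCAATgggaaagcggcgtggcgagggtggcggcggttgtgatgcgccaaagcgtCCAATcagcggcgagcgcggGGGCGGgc
Chkb, chr15:89429928-89430177, minus strand: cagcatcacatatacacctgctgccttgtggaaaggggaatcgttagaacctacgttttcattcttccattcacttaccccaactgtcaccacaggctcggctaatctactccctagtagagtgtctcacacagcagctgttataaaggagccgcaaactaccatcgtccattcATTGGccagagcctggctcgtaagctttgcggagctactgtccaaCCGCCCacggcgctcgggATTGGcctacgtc
Agpat2, chr2:26604418-26604667, minus strand: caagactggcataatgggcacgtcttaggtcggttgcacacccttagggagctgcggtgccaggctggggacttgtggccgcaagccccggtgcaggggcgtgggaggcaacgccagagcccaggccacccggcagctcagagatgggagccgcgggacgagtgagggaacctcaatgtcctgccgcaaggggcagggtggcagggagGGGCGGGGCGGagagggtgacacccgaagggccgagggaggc
Etnk1, chr6:143166980-143167229, plus strand: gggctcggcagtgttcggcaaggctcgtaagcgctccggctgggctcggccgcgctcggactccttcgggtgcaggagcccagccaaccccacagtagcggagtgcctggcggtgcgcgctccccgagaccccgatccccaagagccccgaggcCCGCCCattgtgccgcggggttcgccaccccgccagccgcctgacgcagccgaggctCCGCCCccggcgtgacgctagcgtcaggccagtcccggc
Pcyt1a, chr16:32430671-32430920, plus strand: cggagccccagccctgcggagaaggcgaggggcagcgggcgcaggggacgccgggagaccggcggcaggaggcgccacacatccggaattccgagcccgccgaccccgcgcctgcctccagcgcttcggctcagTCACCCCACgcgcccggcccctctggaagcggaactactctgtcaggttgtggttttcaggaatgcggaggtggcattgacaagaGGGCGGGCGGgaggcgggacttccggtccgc

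Chka and Chkb both held 2 CCAAT boxes, at bases -82 and -28 before the start site in Chka and at -76 and -13 in Chkb, whereas Agpat2 and Etnk1 held GC boxes only. The element of Pcyt1a lay at bases -116 to -108 of the window shown, and a second annotated start site of the gene has the same site farther upstream. Over all 26734 genes with a window, 1.22% had the sterol regulatory element, 6.88% the E-box, 37.5% the CCAAT box and 35.6% the GC box, and a gene with several windows has more chances of a match. Among the 29 genes of glycerophospholipid synthesis these were in 1, 3, 14 and 21 genes (3.45%, 10.3%, 48.3% and 72.4%). The 26734 were not limited to genes named or measured on the arrays, so their shares are not a like background for the 29. In the cholesterol synthesis genes, 14 of 14 with a window had a CCAAT box, 13 a GC box, 3 an E-box and 1 the sterol regulatory element. A match describes letters and is no evidence that a factor binds there.

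The first acylations were uneven, with Agpat2 higher, Agpat3 lower and the other 3 Agpat genes without a single direction. Gpam, the mitochondrial glycerol-3-phosphate acyltransferase, had a signal of 1252 in control and 1341 in knockout (log2 ratio 0.10), within the probe error. Agpat2, an acyltransferase that makes phosphatidic acid and is needed for fat storage in adipose tissue, had 3588 and 6607. That is 1.84-fold higher (log2 ratio 0.88, 3.16 times the probe error), a ratio that 1.91% of all measured genes reached, and it rests on 1 probe set. Agpat3, which encodes another enzyme of this step, was on the other side, with 843 in control and 588 in knockout (log2 ratio -0.52, 1.43-fold lower). Its other probe sets gave 0.0049, -0.59 and -0.48, so 3 of 4 were lower.

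Agpat1, Agpat4 and Agpat5 gave no single direction. The brightest probe set of Agpat5 gave 0.42 (2134 and 2862), whereas the second gave -0.59 (829 and 549). Agpat4 was at 0.19 by a probe set of the _x_at type, which can bind related transcripts, and at -0.61 by its other one (461 and 303). For Agpat1 the values were 0.17 and -0.16. The span between Agpat2 and Agpat3, 1.40 in log2 ratio, was 3.55 times the probe error of a difference (0.39), the widest of the 7 isoenzyme families compared. This family has 5 members and the others 2 or 3, and a span between extremes tends to widen with the number of genes. The error of 0.39 is for a given pair, so the spans are not compared on equal terms.

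Lipins, the phosphatases that turn phosphatidic acid into diacylglycerol, differed less. Lpin3 was at 0.55 (342 in control and 502 in knockout, 1.47-fold higher) by 1 probe set, just under 1.5-fold. Lpin1 was at 0.075 and 0.33 by its probe sets (442 and 466 by the brightest), and Lpin2, the 1 gene with several probe sets above the floor that were all lower, at -0.062, -0.18 and -0.022. The branch median of 0.075 lay within the probe error.

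The CDP-diacylglycerol branch, which supplies phosphatidylinositol and cardiolipin, lay close to control by the brightest probe set. Its median was 0.052 over 6 genes, with none of them past 1.5-fold. By the second brightest one, where a gene has it, the median was 0.35 and Pgs1 passed 1.5-fold (0.66). Cds1, a CDP-diacylglycerol synthase, was the highest by the brightest probe set, with 2639 in control and 3442 in knockout (log2 ratio 0.38). Its second probe set gave 0.50. Cds2, its relative, was at 0.21, with the other 5 probe sets between -0.38 and 0.32. Cdipt, which makes phosphatidylinositol, had 5323 and 5536 (0.057, and 0.22 by its other probe set).

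In the cardiolipin steps of mitochondria the genes diverged slightly. Pgs1, which makes phosphatidylglycerophosphate, gave 0.021 with the brightest probe set but 0.66, 0.47 and -0.53 with the others. Crls1, cardiolipin synthase, was at 0.048 and 0.35. Taz, here tafazzin, the transacylase that remodels the chains of cardiolipin, was lower, with 2421 in control and 1882 in knockout (log2 ratio -0.36, 1.29-fold lower) by its 1 probe set above the floor.

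By the brightest probe sets, the CDP-choline pathway to phosphatidylcholine had its largest difference at the first step. Chka, choline kinase alpha, which phosphorylates choline, gave 1179 in control and 2261 in knockout. It was 1.92-fold higher (log2 ratio 0.94, 3.37 times the probe error), a ratio that 1.66% of all measured genes reached. All 3 probe sets were higher, the others by 0.58 (1115 and 1662) and 1.13 (434 and 951), although the second one lies just under 1.5-fold. Chkb, choline kinase beta, was at 0.29 (2083 and 2553), and the ratios of both kinases were 0.65 apart, 1.64 times the probe error of a difference.

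Later steps of that pathway differed less by their brightest probe sets. Pcyt1a, whose enzyme makes CDP-choline and is regarded as rate-limiting, was at 0.099 (1484 in control and 1589 in knockout). Its 3 dimmer probe sets gave 0.38, 0.55 and 0.68, so that all 4 were higher and the brightest was the lowest of them. Chpt1, cholinephosphotransferase, was at 0.11 (5248 and 5679), with its other probe sets between -0.34 and 0.052. Cept1, which transfers both choline and ethanolamine headgroups, was at -0.098 (3807 and 3556).

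All 3 measured genes grouped under the CDP-ethanolamine pathway to phosphatidylethanolamine were higher. Their median was 0.57, the highest of the 7 branches by the brightest probe set. By the second brightest one, available for Etnk1 and Selenoi, it was 0.30, below 3 other branches (0.35 to 0.48). Cept1, which also transfers ethanolamine headgroups, was grouped with CDP-choline and was lower (-0.098). The single direction and the median of this branch depend on that grouping. Etnk1, ethanolamine kinase, had 2052 in control and 3052 in knockout (log2 ratio 0.57, 1.49-fold higher). Its other probe sets above the floor gave 0.53, at least 0.53 and at least 0.56, the last 2 being below the floor in control. Pcyt2, whose enzyme makes CDP-ethanolamine, had 3151 and 4285 (0.44, 1.36-fold higher) by 1 probe set. Selenoi, a selenoprotein that joins ethanolamine phosphate to diacylglycerol, had 1610 and 2405 (0.58, 1.49-fold higher). All 4 of its probe sets were higher, the others by 0.078, 0.44 and 0.51. None of these 3 genes reached 1.5-fold, and 4.84% of all measured genes had a ratio at least as high as Selenoi.

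**Figure D2:**
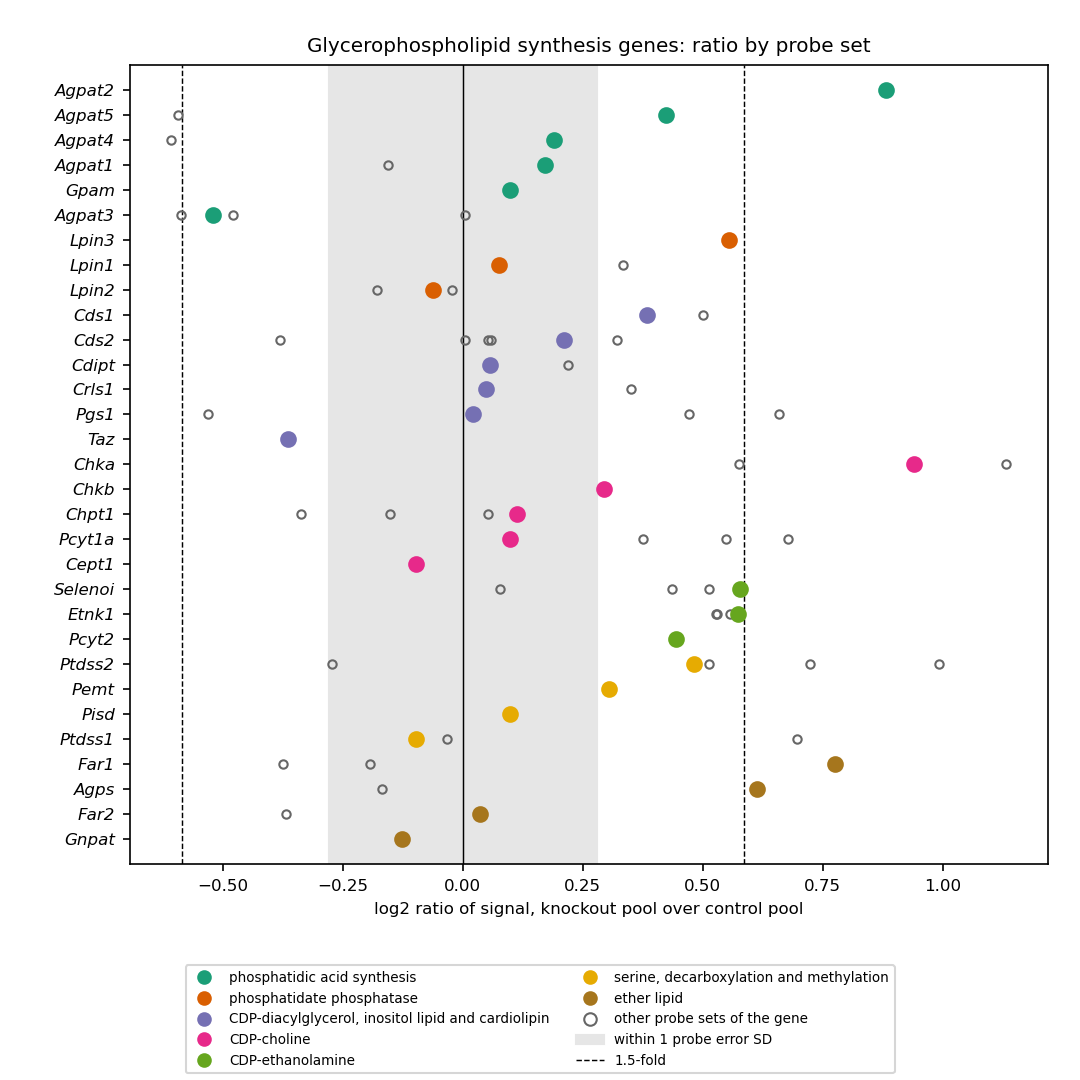
Log2 ratio of signal, knockout over control, for the 31 measured genes by branch, filled circles for the brightest probe set and open circles for the others above the floor in either pool, where values below the floor were raised to it. The grey band spans 1 probe error (0.28) on either side of 0 and the dashed lines mark 1.5-fold; of the genes with several probe sets, Chka, Etnk1 and Cds1 have all circles to the right of the band, whereas Agpat4, Agpat5, Far1 and Pgs1 have circles on both sides of 0.

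Among the genes that interconvert phospholipids, the phosphatidylserine synthases differed from each other. Ptdss2, which makes phosphatidylserine mainly from phosphatidylethanolamine, had 1881 in control and 2628 in knockout (log2 ratio 0.48, 1.40-fold higher). Of its other 4 probe sets above the floor, 3 gave 0.99, 0.51 and 0.72 and the dimmest -0.27. Ptdss1, which can start from phosphatidylcholine, was at -0.098 and -0.034 by its brighter probe sets (2324 and 2172 by the first) and at 0.70 by a dim one (193 and 313).

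The remaining genes of this group lay near the probe error. Pisd, the mitochondrial phosphatidylserine decarboxylase, was at 0.099 (5128 in control and 5491 in knockout) by a probe set of the _x_at type, and its pseudogenes make that value uncertain. Pemt, which methylates phosphatidylethanolamine to phosphatidylcholine and is known mainly from liver, had a low signal of 153 and 189 (0.30).

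For ether lipids, whose first steps lie in peroxisomes, the ratios depended on the probe set chosen. Far1, a fatty acyl-CoA reductase that supplies the alkyl chain, gave 0.78 with its brightest probe set (110 in control and 189 in knockout, 1.71-fold higher), close to the floor. Its other probe sets above the floor were lower, one from 120 in control to 71.3, below the floor, in knockout (log2 ratio -0.37 against the floor). Agps, which exchanges the acyl for the alkyl chain, was at 0.61 (418 and 640, 1.53-fold higher) by one probe set and at -0.17 (548 and 488) by the other. The geometric mean signals of the latter pair were 517.7 and 517.4, so the choice of the brighter one was close to a tie, and after quantile normalisation it fell on the other, at -0.11. Far2 was at 0.035 (1379 and 1412) and -0.37, and Gnpat, which begins the pathway, at -0.13 (778 and 713). Without Far1 and Agps, the members at least 1.5-fold higher are Chka and Agpat2, the same 2 genes as with the mean over a gene's probe sets.

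Other genes of glycerophospholipid metabolism were likewise mostly higher. Of 35 listed, 32 were measured, 25 higher and 7 lower (44.9% of all measured genes higher), with a median of 0.24. At least 1.5-fold higher were 4 (4.76% of all measured genes), and 1 was at least 1.5-fold lower (8.74% of all). Prelid3b, related to carriers of phospholipid between the mitochondrial membranes, was at 1.15 (993 in control and 2209 in knockout, 2.22-fold higher) by 1 probe set. Pld1, a phospholipase D that releases phosphatidic acid from phosphatidylcholine, was at 0.91 (2931 and 5521), and at 0.40 and -0.074 by its other probe sets. Plpp1, a lipid phosphate phosphatase, was at 0.67 and 0.31, and Flvcr1, a membrane transporter of choline, at 0.65 (1950 and 3070). Dgke, a diacylglycerol kinase, was at least 1.77-fold lower (165 in control and 88.0, below the floor, in knockout). Its dimmer probe sets, also below the floor in knockout, gave -0.23 (109 and 74.6) and -0.10 (99.5 and 66.1) against the floor.

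Among genes of substrate supply in that list, Flvcr1 passed 1.5-fold and those below did not by their brightest probe sets. Gpat3, a glycerol-3-phosphate acyltransferase of the endoplasmic reticulum, was at 0.55 (2041 and 2987), and Gpat4 at -0.012. The glycerol-3-phosphate dehydrogenase genes Gpd1, Gpd1l and Gpd2 were at 0.36, 0.33 and 0.30. Their second brightest probe sets gave 0.63, 0.52 and 0.67, past 1.5-fold for Gpd1 and Gpd2, while the dimmest of Gpd2 gave -0.19. The choline transporter-like genes went both ways, Slc44a1 at -0.30 (8629 and 7013), Slc44a2 at -0.25, Slc44a3 at 0.19 and Slc44a4 at 0.099.

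Cholesterol synthesis and triglyceride assembly had higher medians in the same pools. Cholesterol synthesis genes were at least 1.5-fold higher in 17 of 17 measured cases, from 0.64 (Dhcr7) to 1.75 (Lss), with a median of 0.93, so that the ratio of Chka is close to the median of that list. Triglyceride assembly, a process that draws on the diacylglycerol that the Kennedy pathways also use, had a median of 0.55 over 10 genes. At least 1.5-fold higher among these 10 were Dgat2 (0.84), Mttp (0.66) and Mogat2 (0.59), and 1, Apob (-0.066), was lower. Lysophospholipid acyltransferases, the family of the deleted gene, went both ways, with 4 higher and 4 lower of 8 measured and a median of 0.091. The extremes were Mboat1, at least 8.91-fold higher, and Lpcat3 itself. Lpgat1 also passed 1.5-fold, at 0.61 (4051 and 6170), with its other probe sets at 0.20, 0.94 and 0.66. No test of a difference between these lists was possible with 1 array per group.

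**Figure D3:**
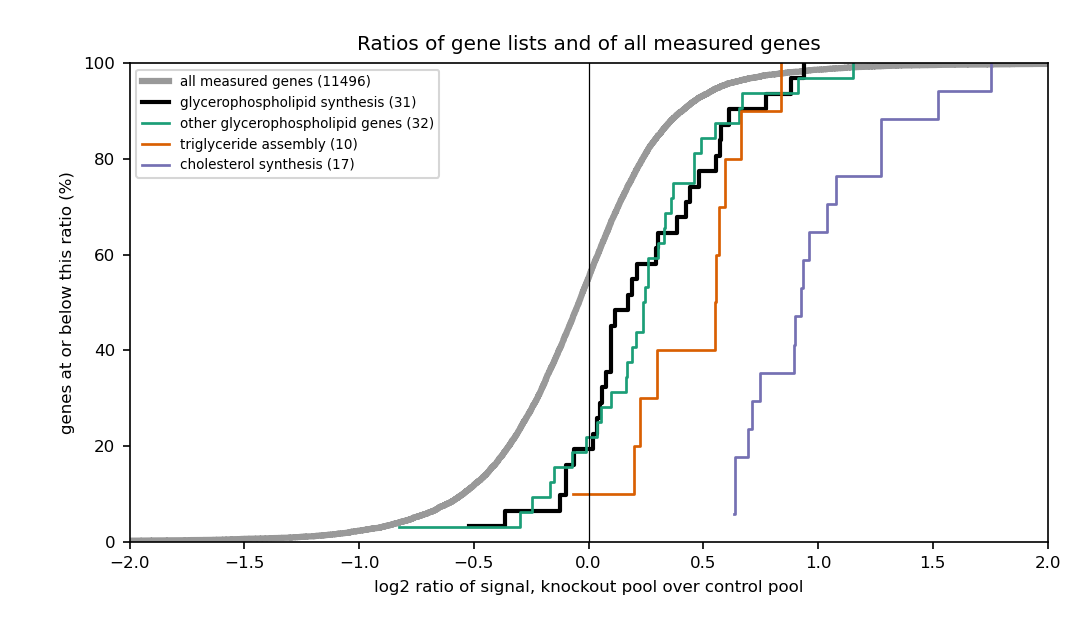
Cumulative percentage of genes at or below a log2 ratio, knockout over control, for all 11496 measured genes, the 31 glycerophospholipid synthesis genes and 3 other lists, with the number of measured genes in brackets. The curve of glycerophospholipid synthesis (median 0.17) runs to the right of that of all genes (-0.042), close to that of other glycerophospholipid genes (0.24), and to the left of triglyceride assembly (0.55) and cholesterol synthesis (0.93); the horizontal axis was limited to 2 on either side of 0.

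The ratio of a gene was compared across 10 alternative settings for the floor, the scaling and the probe set. Agpat2 stayed at least 1.5-fold higher in all 9 settings that gave it a value (0.83 to 0.92). Chka did so in 9 of 10 (0.58 to 0.98), the exception being its second probe set. Etnk1 kept a ratio of 0.53 to 0.61, whereas Selenoi ranged from 0.078 to 0.62, both read by several probe sets. Pcyt2 ranged from 0.40 to 0.48. Taz stayed between -0.39 and -0.32, and Agpat3 between -0.52 and 0.0049. Agpat2 and Pcyt2 have 1 probe set and Taz 1 above the floor, so settings that choose among probe sets could not move them. Their narrow ranges cannot be compared with those of genes with several.

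**Figure D4:**
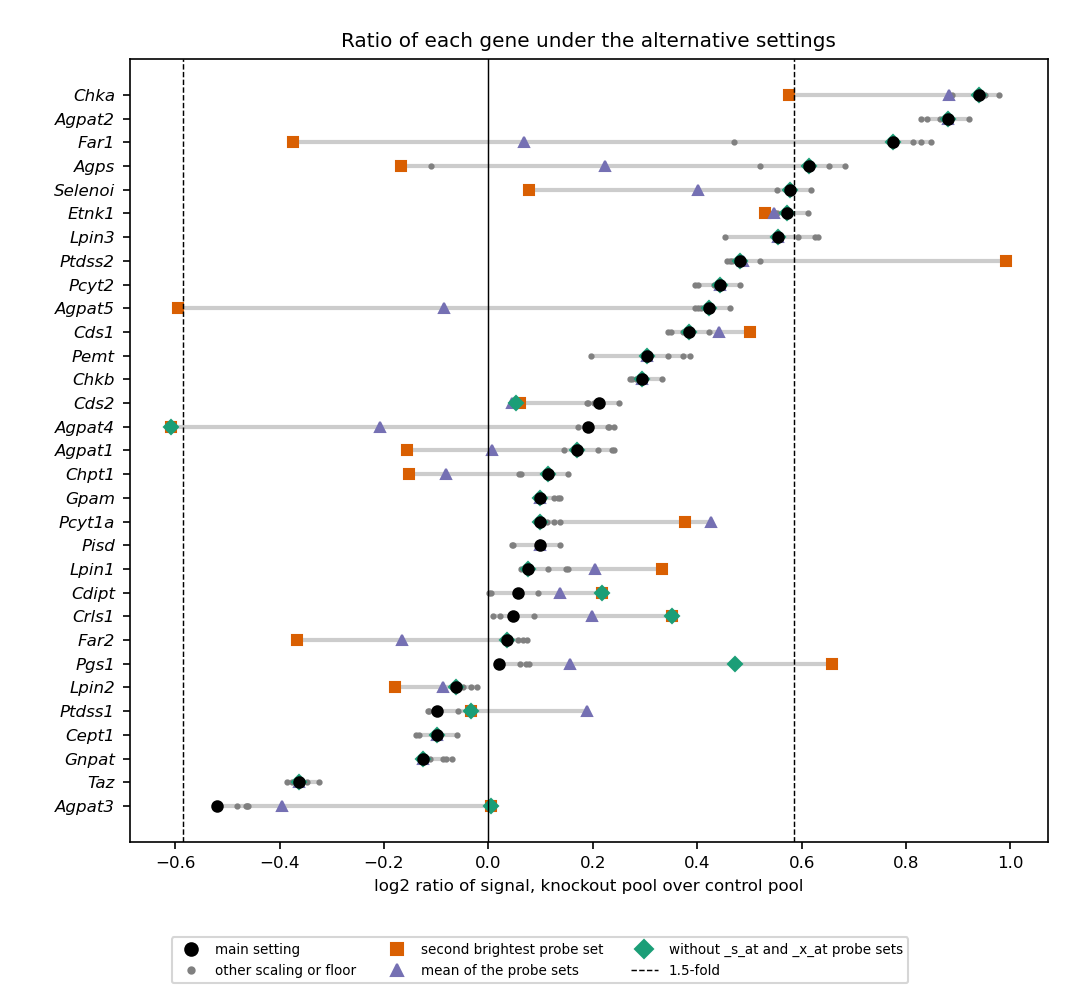
Log2 ratio of each of the 31 genes under the main setting (black) and under each alternative that gave a value, squares for the second brightest probe set, triangles for the mean of the probe sets, diamonds without _s_at and _x_at probe sets and dots for other scalings or floors; bars join the lowest and highest value. Choices of scaling moved most genes little, while the second probe set moved Agpat5 from 0.42 to -0.59 and Ptdss2 from 0.48 to 0.99.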

How the data were processed

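RNA of small-intestinal crypts was extracted with Trizol and read on 2 Affymetrix arrays, per the labels' protocols. The authors deposited linear signal intensities of 45101 probe sets, for which the submitters' processing notes name MAS5 without version or options. This method combines perfect-match and mismatch probes and applies 1 scale factor per array. With 2% trimmed from either end, both columns averaged 500.0, and the values were used as deposited. The design text names a smaller array version than the table's size fits.

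Of 45037 probe sets that are no controls, 34945 had 1 gene symbol and were used. Symbols were updated by Entrez identifier for 34741, from the RefSeq table of GRCm38.p6. Signals below the 50th percentile of both arrays (92.9) were raised to it before the log2 ratio, knockout minus control. The probe error is the SD, over genes, of the ratio of the brightest minus that of the second brightest probe set, divided by the square root of 2 (0.22 for 2211 genes with a bright second probe set). With 1 array per group, genes were counted at 1.5-fold and 2-fold, as a rule of size.

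All listed genes were named where measured, and the rule allowed genes of other lists that passed 1.5-fold or were highest or lowest, of which a part is named. Gpat3, Gpat4, the Gpd genes and the Slc44a genes, which illustrate a step, were chosen after their values were seen. The genes, lists and rules were chosen with earlier results of these data known. Calculations were tested on simulated data and used Python 3.11.15, pandas 2.3.3 and statsmodels 0.14.6.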

Additional observations from a re-analysis of the deposited data

Results flagged for a closer look

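A probe set annotated to Chkb together with its neighbour Cpt1b and the gene Gm44502 entered no comparison, since it names several genes. With 118 in control and 203 in knockout, its log2 ratio was 0.78, above the control level. The probe set of Chkb alone gave 0.29, and which of the 3 genes the shared one reads was not tested.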

How the results depend on the processing

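No paired analysis was possible because a group holds a single array, which also leaves nothing to omit in turn. The median of the measured members stayed between 0.060 and 0.26 under the 10 alternatives and above the median of all genes in each. The count of genes at least 1.5-fold higher, 4 as reported, was 7 with median centring, where Etnk1, Selenoi and Lpin3 also passed, and 2 with a pseudocount in place of the floor (Chka, Agpat2), with the mean of the probe sets (Chka, Agpat2) and with the second brightest probe set (Pgs1, Ptdss2, among 21 genes that have one). The count at least 1.5-fold lower, 0 as reported, was 2 with the second brightest probe set (Agpat4, Agpat5) and 1 without _s_at and _x_at probe sets (Agpat4). Agps reversed to -0.11 after quantile normalisation and to -0.17 by its second probe set, and Far1 to -0.37 by its second probe set. The ether lipid median of 0.32 moved to 0.035 with the floor at the 70th percentile (Far1 then unmeasured), -0.0074 after quantile normalisation, -0.029 with the mean of the probe sets and -0.37 with the second probe set. With the second probe set the median of phosphatidic acid synthesis was -0.37 and that of the CDP-diacylglycerol branch 0.35. The other 88 values of counts and medians moved by less than 1 probe error (or 1.5 times for a count), as did 273 of the values of single genes; 21 of those moved more. Why the probe sets of a gene differ was not tested. Signals near the floor, as for Far1 and Pemt, limit what can be read from them.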

Other observations

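Diacylglycerol kinases, which turn diacylglycerol back into phosphatidic acid, lay within the probe error by their brightest probe sets apart from Dgke and Dgka. Dgka was at a log2 ratio of 0.46 (1552 in control and 2136 in knockout) and Dgkq at 0.16. Dgkz was at 0.055 and -0.016 by its probe sets. Dgkd was at 0.037 by its brightest one and at -1.60 by a dimmer one, whose signal went from 282 in control to 83.5, below the floor, in knockout. Among genes that carry phospholipid between membranes, Prelid1 and its partner Triap1 were at 0.17 and 0.24, well below Prelid3b at 1.15. Pitpna, a phosphatidylinositol transfer protein gene, was at 0.46 (5843 and 8042) and 0.23. Pitpnc1 was at 0.33 by a probe set near the floor (111 and 140), and its other 4 were lower, from -0.70 to -0.088. Ptpmt1 and Tamm41, which act in cardiolipin synthesis in mitochondria, were at 0.37 and 0.26. These genes were named after their values were seen.

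The probe sets of Pcyt1a were ordered by brightness from 0.099 to 0.68, the dimmest (158 and 253) having the highest ratio. The shared probe set of Pisd and its pseudogenes Pisd-ps1 and Pisd-ps3 was at -0.30 (3984 and 3230), opposite in sign to the probe set of Pisd alone at 0.099.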
